A study of Mus musculus with 62 samples.

Results

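The genes described here are 9 genes by which microglia, the resident macrophages of the brain, are commonly recognised in mouse tissue: *Cx3cr1*, *Csf1r*, *P2ry12*, *Tmem119*, *C1qa*, *C1qb*, *C1qc*, *Trem2* and *Aif1*. They were taken by name, through their Ensembl identifiers, and all 9 were among the 11121 genes counted. The libraries are bulk RNA-seq of the prefrontal cortex (PFC) and of the nucleus accumbens (NAc) of male wild-type C57BL/6J mice that were 15 weeks old at sacrifice. In each region, mice that had gone through a multimodal chronic restraint stress protocol (mCRS) were compared with unstressed controls (CTR), with 15 CTR and 15 mCRS libraries of PFC and 16 CTR and 16 mCRS libraries of NAc. No transgene, deletion or drug was part of any group. The labels do not say which PFC and NAc libraries came from the same mouse.

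Microglia survey brain tissue with motile processes, take up debris and synaptic material, and depend on signals from neurons. Colony-stimulating factor 1 and interleukin 34 act on the receptor encoded by *Csf1r* and keep microglia alive. Fractalkine, made by neurons, acts on the receptor encoded by *Cx3cr1*. The C1q proteins start the classical complement cascade, which tags material for uptake. In a bulk library from tissue, a lower value of such a gene can mean fewer microglia or less RNA per cell, and these cannot be told apart.

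The 3 C1q genes lie side by side on the minus strand of chromosome 4 (mouse build GRCm38), in a block of 18675 bases from 136880129 to 136898803, in the order *C1qb*, *C1qc*, *C1qa*. *P2ry12* (chromosome 3, 59216272 to 59262871) lies within *Med12l* on the opposite strand, *Csf1r* overlaps *Hmgxb3* on the opposite strand, and the annotated span of *Cx3cr1* (chromosome 9, 119901616 to 120069879) overlaps several genes, among them *Wdr48* and *Gorasp1*. Whether reads were counted by strand is not given in the sources used here, so counts of these 3 genes carry that uncertainty. *Gorasp1* is annotated on the same strand as *Cx3cr1*, so counting by strand would not settle that overlap. *Trem2* (chromosome 17, 48346401 to 48354147), *Aif1* (chromosome 17, 35170991 to 35176068) and *Tmem119* (chromosome 5, 113793729 to 113800516) overlap no other annotated gene.

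RefSeq promoter sequences were matched for 6 of the 9 genes (GRCm38.p6). Parts of 3 are shown because these genes share letters of the kind bound by PU.1, the ETS-family factor of macrophages and microglia. Capitals mark AGGAAG or, on the other strand, CTTCCT.
C1qb, chr4:136886201-136886300, minus strand: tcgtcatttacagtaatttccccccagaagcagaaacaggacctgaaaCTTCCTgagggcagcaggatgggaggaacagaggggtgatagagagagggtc
C1qc, chr4:136893066-136893164, minus strand: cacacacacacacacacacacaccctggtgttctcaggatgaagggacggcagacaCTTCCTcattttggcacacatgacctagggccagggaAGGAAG
Trem2, chr17:48346301-48346400, plus strand: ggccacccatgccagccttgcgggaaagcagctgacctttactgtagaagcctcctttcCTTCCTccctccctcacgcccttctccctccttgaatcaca

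Within 250 bases before to 50 bases after the start, AGGAAG was present on either strand in 4 of the 6 promoters, those of *C1qb*, *C1qc*, *Trem2* and *P2ry12*, and in 35.4% of all 32817 mouse promoters of the same length. The longer form GAGGAAGT was present in 1 of the 6, that of *C1qc*, and in 3.20% of all promoters. These are matches of letters and not measured binding sites.

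Library totals ran from 945286 to 4857359 counts. Levels are given as CPM, counts scaled to a common library size (per 1e6) after TMM scaling, and since each count is a read near the 3′ end of a transcript, they are compared between libraries and not between genes. A count of 0 in a library allows a level of up to 3 counts, between 0.618 and 3.17 CPM depending on the library, as far as counting error goes. NAc CTR 7 and NAc mCRS 10 stood apart from the others. In NAc CTR 7, the summed level of 8 striatal neuron markers was 474 CPM, against 2594 CPM or more in every other NAc library, and in NAc mCRS 10 the summed level of 3 choroid plexus genes was 23863 CPM, against 533 CPM or less in every other library. The summed level of the 9 microglia genes in these libraries was 569 and 398 CPM, inside the range of the other libraries of their groups, and none of the 9 genes passed the test in any comparison with both libraries left out.

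Summed over the 9 genes, the level overlapped between the 4 groups. In PFC it ran from 188 CPM (CTR 5) through a median of 433 to 783 CPM (CTR 3) in CTR, and from 307 through 396 to 567 CPM in mCRS. In NAc it ran from 360 through 485 to 690 CPM in CTR and from 296 through 478 to 690 CPM in mCRS. The means were 451 ± 143, 435 ± 104, 500 ± 99.0 and 470 ± 99.2 CPM (SD, n = 15, 15, 16 and 16).

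**Figure D1:**
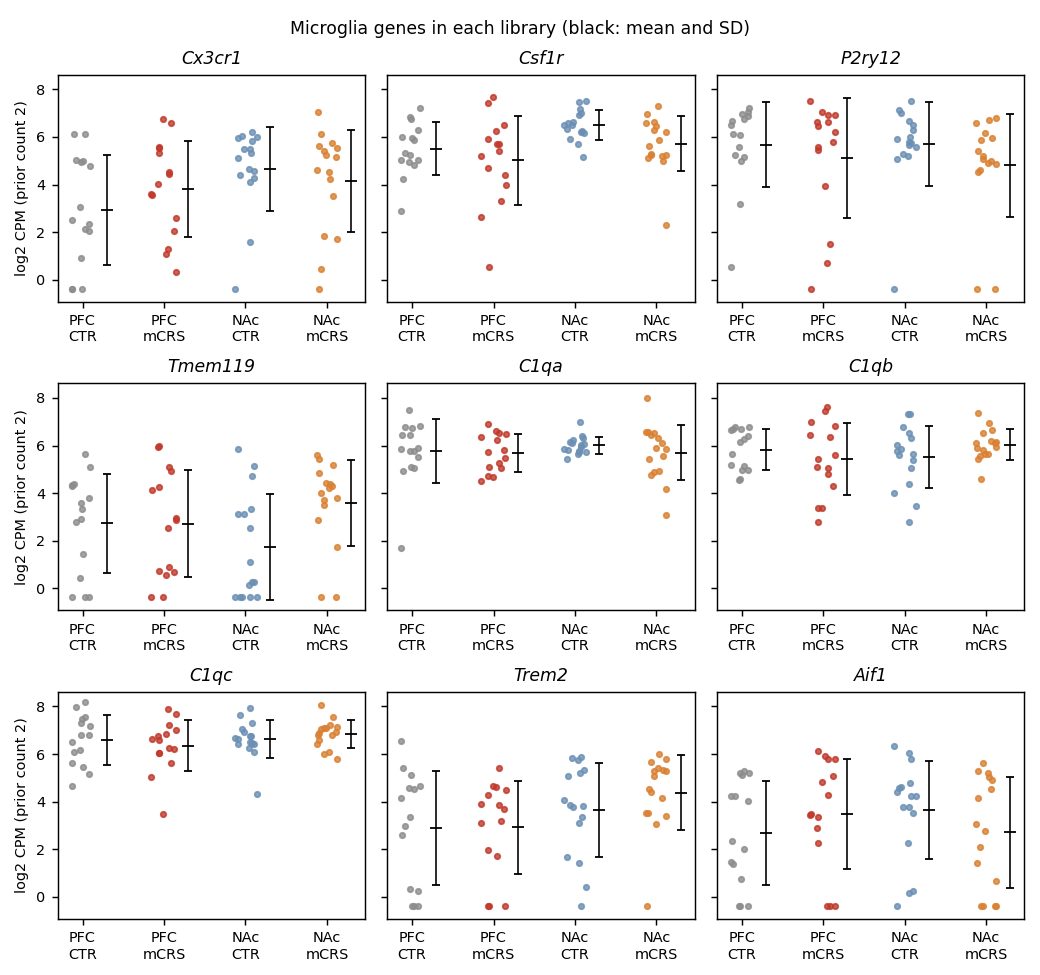
Level of each of the 9 microglia genes in every library, as log2 CPM with a prior count of 2, with 1 point per library, in the 4 groups of 15 or 16 libraries. Black bars give the mean and SD of a group. No library has a count of 0 for the C1q genes, whose SD reaches 1.52 (*C1qb* in PFC mCRS). *Tmem119*, *Trem2*, *Aif1*, *Cx3cr1* and *P2ry12* reach the lowest value, a count of 0, in some libraries of most groups.

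The receptors come first. *Csf1r* encodes the receptor tyrosine kinase that microglia need for survival. In PFC its level ran from 6.72 CPM through a median of 39.0 to 149 CPM in CTR and from 0.678 through 41.3 to 204 CPM in mCRS. In NAc it ran from 35.5 through 89.3 to 179 CPM in CTR and from 4.23 through 53.6 to 156 CPM in mCRS. By median, NAc CTR was the highest of the 4 groups and PFC CTR the lowest, and each group overlapped every other.

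*Cx3cr1* encodes the fractalkine receptor. Its PFC level ran from 0 through 4.88 to 69.3 CPM in CTR and from 0.471 through 15.7 to 108 CPM in mCRS. Its NAc level ran from 0 through 36.6 to 74.3 CPM in CTR and from 0 through 29.2 to 131 CPM in mCRS. It was at 0 in 3 PFC CTR libraries and in 1 library of each NAc group.

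*P2ry12* encodes the ADP receptor that steers microglial processes towards injury. Its PFC level ran from 0.659 through 69.7 to 148 CPM in CTR and from 0 through 73.0 to 184 CPM in mCRS. Its NAc level ran from 0 through 57.5 to 182 CPM in CTR and from 0 through 34.3 to 110 CPM in mCRS. Of the 16 NAc mCRS libraries, 6 lay above the NAc CTR median.

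*Trem2* encodes a lipid-sensing receptor that signals through the adaptor TYROBP. Its PFC level ran from 0 through 9.41 to 92.2 CPM in CTR and from 0 through 12.04 to 42.1 CPM in mCRS. Its NAc level ran from 0 through 13.7 to 57.9 CPM in CTR and from 0 through 27.7 to 62.6 CPM in mCRS. The single library PFC CTR 1 carried 33.3% of the summed CPM of its group.

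The C1q genes encode the 3 chains of 1 protein. *C1qa* ran in PFC from 2.44 through 57.3 to 179 CPM in CTR and from 22.1 through 52.8 to 118 CPM in mCRS, and in NAc from 42.4 through 61.8 to 124 CPM in CTR and from 7.62 through 57.7 to 256 CPM in mCRS. *C1qb* ran in PFC from 22.4 through 70.4 to 110 CPM in CTR and from 6.10 through 42.6 to 195 CPM in mCRS, and in NAc from 6.14 through 51.5 to 161 CPM in CTR and from 23.6 through 64.2 to 164 CPM in mCRS. *C1qc* ran in PFC from 24.4 through 110 to 291 CPM in CTR and from 10.5 through 94.3 to 235 CPM in mCRS, and in NAc from 19.0 through 100 to 245 CPM in CTR and from 54.2 through 120 to 270 CPM in mCRS. No library was at 0 for any of the 3 genes, and the medians of the 4 groups lay within a narrow band for *C1qa*, between 52.8 and 61.8 CPM.

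*Tmem119* encodes a membrane protein used to tell microglia from other macrophages, and *Aif1* encodes IBA1, a calcium-binding protein of the actin skeleton that is the usual stain for microglia. *Tmem119* ran in PFC from 0 through 9.32 to 49.0 CPM in CTR and from 0 through 6.60 to 61.7 CPM in mCRS, and in NAc from 0 through 0.917 to 56.6 CPM in CTR and from 0 through 16.6 to 47.7 CPM in mCRS. It was at 0 in 5 of 16 NAc CTR libraries, those numbered 1, 2, 3, 4 and 7, and had 1 count in NAc CTR 6 and 8. No library from NAc CTR 9 to NAc CTR 16 was at 0, and the cause of this split was not tested. NAc CTR 5 alone carried 37.9% of that group's summed CPM. *Aif1* ran in PFC from 0 through 4.26 to 38.3 CPM in CTR and from 0 through 10.4 to 69.9 CPM in mCRS, and in NAc from 0 through 18.05 to 81.2 CPM in CTR and from 0 through 6.88 to 49.2 CPM in mCRS. It was at 0 in 3 libraries of each PFC group, in 1 NAc CTR library and in 4 NAc mCRS libraries.

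To ask what chronic stress did to these genes in PFC, the 15 mCRS libraries were compared with the 15 CTR libraries. None of the 9 genes passed a false discovery rate (FDR) of 0.05 by edgeR's quasi-likelihood test, and none had an unadjusted p below 0.05, where 0% and 3.52% of all 8916 genes tested did. On the log2 scale, 5 of the 9 fold changes (mCRS against CTR) were above 0, against 49.4% of all genes, and their median was 0.023, against -0.0070 for all genes. *C1qc* had the narrowest interval, a log2 fold change of -0.23 (SE 0.35, 95% interval -0.93 to 0.46), and 5 of 15 mCRS libraries lay above its CTR median. *C1qa* had -0.24 (SE 0.41, interval -1.06 to 0.58) and *C1qb* 0.067 (SE 0.44, interval -0.82 to 0.95). Among the receptors, *Csf1r* had a log2 fold change of 0.023 (SE 0.50), *P2ry12* of -0.038 (SE 0.53), *Cx3cr1* of 0.64 (SE 0.83) and *Trem2* of -0.49 (SE 0.91). *Aif1* had the smallest unadjusted p of the 9, 0.371, with a log2 fold change of 0.81 (SE 0.89, interval -0.98 to 2.60; adjusted p = 0.9997), and 11 of 15 mCRS libraries lay above its CTR median. *Tmem119* had a log2 fold change of 0.38 (SE 0.91). At this depth and spread, no change of these genes was detected in PFC. The intervals of *Cx3cr1*, *P2ry12*, *Tmem119* and *Trem2* reached past 1 in both directions. Fewer genes were detected in PFC mCRS libraries (82.3 ± 6.22% of all genes) than in PFC CTR libraries (87.1 ± 4.42%; SD, n = 15 each). With that share as a covariate, none of the 9 genes passed an FDR of 0.05.

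In NAc, where 16 mCRS libraries were set against 16 CTR libraries, none of the 9 genes passed an FDR of 0.05 and none had an unadjusted p below 0.05 by the same test, where 0.00986% and 2.04% of all 10141 genes tested did. Of the 9 fold changes, 5 were above 0, against 49.3% of all genes, and the median was 0.041 on the log2 scale, against -0.0061 for all genes. *Csf1r* had the smallest unadjusted p, 0.0641, with a log2 fold change of -0.59 (SE 0.31, interval -1.22 to 0.04; adjusted p = 0.9999), and 4 of 16 mCRS libraries lay above the CTR median. *P2ry12* followed at -0.63 (SE 0.46, interval -1.56 to 0.30). The C1q chains lay near 0, *C1qc* at 0.16 (SE 0.25, interval -0.34 to 0.65), *C1qb* at 0.20 (SE 0.36) and *C1qa* at 0.041 (SE 0.34). *Trem2* had a log2 fold change of 0.36 (SE 0.63), *Cx3cr1* of -0.11 (SE 0.58) and *Aif1* of -0.62 (SE 0.80). *Tmem119* had the largest estimate, 0.96 (SE 0.87, interval -0.79 to 2.71), with 14 of 16 mCRS libraries above the CTR median. That median, 0.917 CPM, lay within the 0.618 to 3.17 CPM that a count of 0 allows. Without NAc CTR 5, the CTR library highest in *Tmem119*, the edgeR estimate was 1.54 with an unadjusted p of 0.0943. As that library was singled out for its high value, a larger estimate followed from the choice. Over the alternatives other than the permutation test, the estimate ran from 0.80 to 3.02. With log2 library size as a covariate, the estimate for *Tmem119* was 3.02 with an unadjusted p of 0.0042, and it did not pass an FDR of 0.05. In a two-sided permutation test of mean log2 CPM, the unadjusted p was 0.0146 for *Csf1r* (difference -0.79) and 0.0163 for *Tmem119* (difference 1.90), among 36 such tests over the 9 genes and 4 comparisons, of which 5 had an unadjusted p below 0.05.

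**Figure D2:**
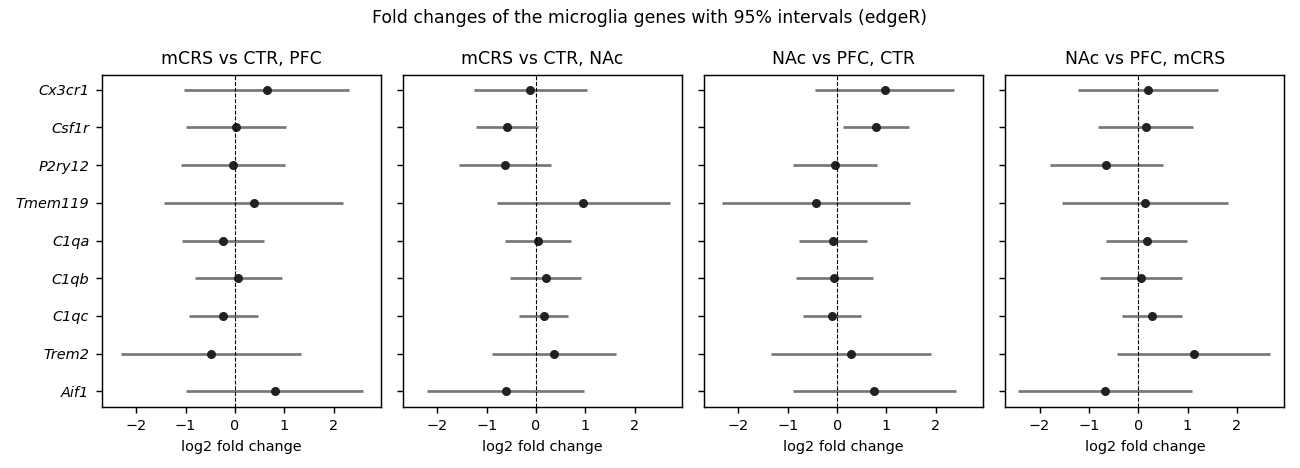
Log2 fold change of each of the 9 microglia genes (points) with its 95% interval (lines) from edgeR, for mCRS against CTR in PFC and in NAc and for NAc against PFC in CTR and in mCRS. The interval leaves out 0 for 1 gene in 1 comparison, *Csf1r* in NAc against PFC in CTR, and is narrowest for *C1qc* in NAc.

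Whether mCRS acted differently in NAc and in PFC was tested as an interaction over all 62 libraries. None of the 9 genes passed an FDR of 0.05, and none had an unadjusted p below 0.05, by edgeR's quasi-likelihood test, where 0.00907% and 3.09% of 11025 genes did. The smallest unadjusted p was that of *Aif1*, 0.248, with a log2 difference (NAc minus PFC) of -1.41 (SE 1.21, interval -3.81 to 0.996). *Csf1r* differed by -0.62 (SE 0.58) and *C1qc* by 0.40 (SE 0.43). A difference between the regions was therefore not shown for any of the genes, and the intervals were wide.

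Region itself was compared next, in CTR mice and then in mCRS mice, with NAc set against PFC. In CTR, none of the 9 genes passed an FDR of 0.05 by edgeR, where 6.32% of 9932 genes did, and 1 of 9 had an unadjusted p below 0.05, where 15.0% did. That gene was *Csf1r*, with a log2 fold change of 0.79 (SE 0.33, interval 0.12 to 1.45; unadjusted p = 0.0218, adjusted p = 0.196), and 15 of 16 NAc CTR libraries lay above the PFC CTR median. Its unadjusted p was below 0.05 in each of the 31 fits that left out 1 library, with an adjusted p of 0.0907 at the lowest, without PFC CTR 3. With all 62 libraries in one edgeR fit, however, none of the 9 genes had an unadjusted p below 0.05. Over the alternatives, the adjusted p of *Csf1r* ran from 0.0766 to 0.413. *Cx3cr1* had a log2 fold change of 0.97 (SE 0.70, interval -0.44 to 2.38), with 14 of 16 NAc libraries above the PFC median. The C1q chains had log2 fold changes of -0.10 (*C1qc*, SE 0.30), -0.089 (*C1qa*, SE 0.34) and -0.054 (*C1qb*, SE 0.39), *P2ry12* of -0.046 (SE 0.43), *Trem2* of 0.27 (SE 0.81), *Tmem119* of -0.43 (SE 0.95) and *Aif1* of 0.76 (SE 0.82). The edgeR estimate for *Tmem119* was -2.91 with log2 library size as a covariate (unadjusted p = 0.0159, adjusted p = 0.159). With the share of detected genes as a covariate it was -3.20 (unadjusted p = 0.0178, adjusted p = 0.172). It was -1.01 without NAc CTR 5, the highest NAc CTR library. Over the alternatives other than the permutation test, the estimate for *Tmem119* ran from -3.20 to -0.11. In the permutation test, *Csf1r* had a difference of mean log2 CPM of 1.01 (unadjusted permutation p = 0.0029) and *Cx3cr1* of 1.77 (unadjusted permutation p = 0.0246). The median was -0.046, against 0.018 for all genes.

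In mCRS, none of the 9 genes passed an FDR of 0.05 or had an unadjusted p below 0.05 by edgeR, where 6.50% and 14.8% of 9452 genes did. *Trem2* had the smallest unadjusted p, 0.152, with a log2 fold change (NAc against PFC) of 1.12 (SE 0.77, interval -0.42 to 2.67), and 11 of 16 NAc libraries lay above its PFC median. In the permutation test its difference of mean log2 CPM was 1.41 (unadjusted permutation p = 0.0316). *Csf1r* had a log2 fold change of 0.15 (SE 0.48) in mCRS mice. *P2ry12* had a log2 fold change of -0.65 (SE 0.57), with 3 of 16 NAc libraries above its PFC median, and *C1qb* of 0.057 (SE 0.42), with 15 of 16 above. The 9 genes had a median of 0.15, against 0.0079 for all genes. The comparisons of region and of stress share libraries and are not independent of each other.

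Markers of other glia differed between the same libraries. Of 8 oligodendrocyte genes, which encode myelin proteins and enzymes of myelinating cells, 6 were higher in NAc than in PFC in CTR and 7 in mCRS at an FDR of 0.05, where 2.09% and 2.01% of all genes were. The median log2 fold change was 0.77 in CTR and 0.79 in mCRS. The summed level of the 8 genes was 4013 ± 1477 CPM in PFC CTR and 6944 ± 882 CPM in NAc CTR (SD, n = 15 and 16). Among 10 astrocyte genes, 2 were higher in NAc in each condition. None of the 7 endothelial genes tested passed an FDR of 0.05 in CTR or in mCRS, where 6.32% and 6.50% of all genes did. Defining markers of the macrophages at brain borders, *Mrc1*, *Cd163*, *Lyve1* and *Pf4*, are not among the counted genes. *Stab1*, the one border macrophage gene of 9 that was counted, had group medians of 0 to 2.23 CPM. The median biological coefficient of variation between libraries in the CTR comparison was 0.79 for the microglia genes, 0.42 for the oligodendrocyte genes and 0.95 for all genes.

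**Figure D3:**
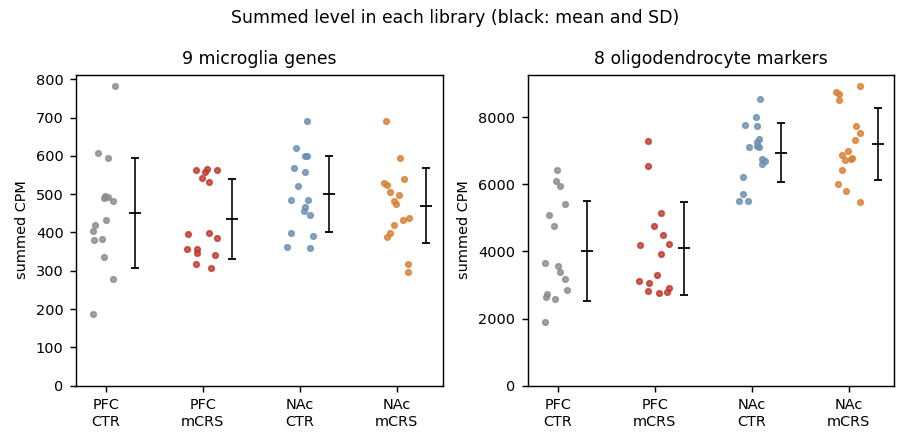
Summed CPM of the 9 microglia genes (left) and of 8 oligodendrocyte markers (right) in each library, with 1 point per library and the mean and SD of each group in black. The microglia sums of the 4 groups overlap, with means between 435 and 500 CPM, while the oligodendrocyte sums are higher in most NAc libraries than in most PFC libraries.

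The members were next compared with each other within each group. Across the 36 pairs of genes, the median Pearson's r of log2 CPM was 0.18 and 0.0045 in the CTR and mCRS libraries of PFC, and 0.038 and 0.023 in those of NAc. Single pairs ran from -0.66 to 0.74. The 3 chains of C1q, which are built into 1 protein, gave 12 pairs over the 4 groups. The highest r among them was that of *C1qa* and *C1qc* in PFC mCRS, with r = 0.66 (permutation p = 0.0046, adjusted over the 12 pairs 0.0558) and Spearman's rho = 0.61 (permutation p = 0.017, adjusted 0.205; n = 15), and r was 0.73 without the 2 libraries farthest from the median. In PFC CTR the same pair had r = -0.036. No C1q pair passed an adjusted p of 0.05. Over all 62 libraries, with group means removed, each gene's r with the mean of the other 8 lay between -0.033 (*Trem2*) and 0.23 (*Aif1*).

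**Figure D4:**
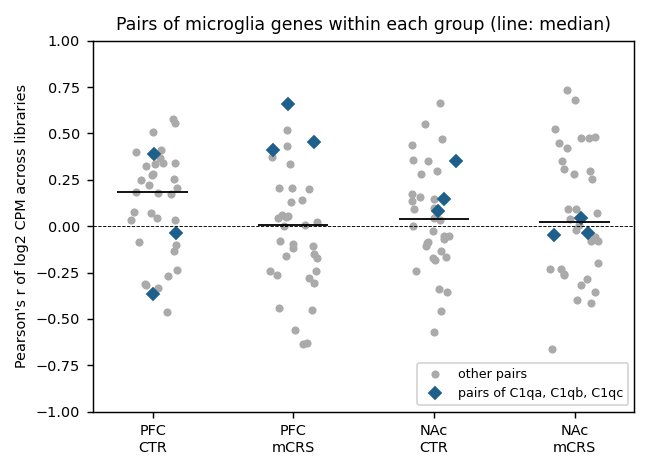
Pearson's r of log2 CPM across libraries for the 36 pairs of microglia genes in each group, with the pairs of C1q chains as blue diamonds, all other pairs as grey points and the group median as a line. The medians lie between 0.0045 and 0.18. Taken over the 4 groups, the C1q pairs ran from -0.37 to 0.66, inside the span of the other pairs. All C1q pairs were above 0 in PFC mCRS (0.41 to 0.66) and in NAc CTR (0.085 to 0.35), and their signs were mixed in the other groups.

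The partners of the 9 genes were taken from a list of 23 ligands, adaptors, complement components and regulators, of which 15 were counted; *C3*, *Itgb2*, *Tgfb1* and *Hcst* were among those not counted. None of those tested passed an FDR of 0.05 for mCRS against CTR in PFC (9 tested) or in NAc (13 tested), and none had an unadjusted p below 0.05. Of all genes tested by edgeR, 0% and 3.52% did so in PFC, and 0.00986% and 2.04% in NAc. *Cx3cl1*, which encodes fractalkine, had a log2 fold change of -0.30 in PFC (SE 0.16, interval -0.61 to 0.02; unadjusted p = 0.0671, adjusted p = 0.9997) and of 0.076 in NAc (SE 0.15). The PFC level of *Cx3cl1* ran from 431 through 654 to 894 CPM in CTR and from 120 through 548 to 823 CPM in mCRS. The ligands of the *Csf1r* product had log2 fold changes in PFC of 0.43 (*Csf1*, SE 1.06) and -0.19 (*Il34*, SE 0.55), and in NAc of 0.23 (*Csf1*, SE 0.85) and -0.046 (*Il34*, SE 0.47). *Tyrobp*, the adaptor of TREM2, had a log2 fold change of 0.77 in PFC (SE 0.54) and of -0.32 in NAc (SE 0.55). *Tgfbr1*, a receptor chain for the TGF-beta that keeps microglia in their mature state, had 0.043 in PFC (SE 1.0005) and 1.26 in NAc (SE 0.72, unadjusted p = 0.0855).

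Between regions, 1 of 11 partners tested passed an FDR of 0.05 by edgeR in CTR and 1 of 11 in mCRS, where 6.32% and 6.50% of all genes did. In CTR it was *Sirpa*, which encodes the receptor for the CD47 signal that restrains uptake and is also made by neurons, and it was lower in NAc than in PFC in CTR, with a log2 fold change of -0.74 (SE 0.19, adjusted p = 0.0092). Its level ran from 84.7 through 326 to 586 CPM in PFC CTR and from 81.5 through 173 to 311 CPM in NAc CTR, and in mCRS its log2 fold change was -0.22 (SE 0.20). In mCRS the partner was *Itgam*, which encodes the alpha chain of complement receptor 3. It was at 0 in 11 of 15 PFC mCRS libraries and reached 12.9 CPM there, while it ran from 0 through 14.8 to 79.6 CPM in NAc mCRS. *Itgam* passed the filter on low counts in that comparison only through its level in NAc mCRS, so these levels are given as a description and the call is not counted as support.

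Further lists held microglia genes outside the 9. Of 35 other microglia genes, 26 were counted, and 18, 21, 26, 21 and 20 of them were tested for mCRS in PFC, mCRS in NAc, the interaction, and region in CTR and in mCRS. None passed an FDR of 0.05 in any of these 5 comparisons by edgeR, where 0%, 0.00986% and 0.00907% of all genes did for mCRS in PFC, mCRS in NAc and the interaction, and 6.32% and 6.50% between regions in CTR and in mCRS. In PFC, *P2ry13*, a relative of *P2ry12*, had a log2 fold change of -2.45 for mCRS against CTR (SE 1.05, unadjusted p = 0.0228, adjusted p = 0.9997), and was at 0 in 10 of 15 mCRS and 2 of 15 CTR libraries. With so many mCRS libraries at 0, *P2ry13* passed the filter on low counts mostly through its level in PFC CTR. Its values are therefore given as a description and its p-value is not counted as support. In NAc none of 21 tested had an unadjusted p below 0.05, where 2.04% of all genes did. Between regions in CTR, *Rgs10*, a regulator of G protein signalling, had a log2 fold change of 1.13 (SE 0.40, adjusted p = 0.0813), and *Ctss*, a lysosomal protease gene, of -0.76 (SE 0.34, adjusted p = 0.238). Without PFC CTR 15, the adjusted p of *Rgs10* was 0.0471.

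Of 27 genes that rise when microglia are activated, 17 were counted, and *Cst7*, *Itgax*, *Clec7a*, *Il1b* and *Tnf* were not. None passed an FDR of 0.05 for mCRS against CTR in PFC (15 tested) or in NAc (17 tested) by edgeR, where 0% and 0.00986% of all genes did. *B2m*, the light chain of MHC class I, had the smallest unadjusted p in PFC, 0.0076, with a log2 fold change of 0.59 (SE 0.21, adjusted p = 0.950). The level of *B2m* in PFC ran from 96.2 through 193 to 337 CPM in CTR and from 125 through 319 to 474 CPM in mCRS. Between regions in CTR, 1 of 16 tested passed an FDR of 0.05 by edgeR, where 6.32% of all genes did. In mCRS, 15 were tested, and 1 passed as higher and 1 as lower in NAc, where 6.50% of all genes passed. *Apoe*, a lipid carrier gene that astrocytes also use strongly, was higher in NAc by 0.56 in CTR (SE 0.10, adjusted p = 6.53e-05) and by 0.59 in mCRS (SE 0.10, adjusted p = 1.35e-05) on the log2 scale. *B2m* was lower in NAc in mCRS, with a log2 fold change of -0.98 (SE 0.28, adjusted p = 0.0172), and had -0.44 in CTR (SE 0.23, adjusted p = 0.367). The *B2m* call between regions was not kept by DESeq2 or with the share of detected genes as a covariate.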

How the data were processed

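Libraries were made with BRB-seq, which barcodes samples during oligo-dT priming and reads the 3′ ends of transcripts. According to the study's methods, reads were mapped with STAR to GRCm38 (mm10) and unique reads were counted per gene with HTSeq (0.9.1 in the submitters' processing notes), and 2 PFC samples were left out for poor sequencing. The deposited table holds the authors' raw counts per gene. No use of molecular identifiers is stated, so PCR copies may be counted and intervals cover counting error and spread between libraries only. The p-values measure the spread among these libraries of 1 cohort.

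Counts were tested with edgeR 4.0.16 in R 4.3.3 (TMM scaling, filterByExpr by group, quasi-likelihood test, Benjamini-Hochberg adjustment over all genes tested). Each comparison within a region or condition used the libraries of its 2 groups, and the interaction used all 62. Libraries were taken as independent in the regional and interaction tests, although the study's methods describe PFC and NAc collected from each animal. The test was tried on simulated counts. Alternatives were other size factors, filters, covariates, a replicate block, DESeq2 1.42.0, a permutation test with 100000 resamples and each library left out in turn. The covariate called numbering run set libraries numbered 1 to 8 of each group, or 1 to 7 in PFC mCRS, apart from the later numbers. What this split stands for is not given by the labels.

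The 9 genes and all gene lists were chosen with earlier results of these data known. Named outside the 9 were, per list and comparison, genes among the 4 with the smallest p, and of the partners also *Cx3cl1*, *Csf1*, *Il34*, *Tyrobp* and *Tgfbr1*. Promoters came from RefSeq, and gene positions from GENCODE M21. Results of some genes that met this rule are not reported here.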

Additional observations from a re-analysis of the deposited data

How the results depend on the processing

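None of the 9 microglia genes had an FDR below 0.05 in any comparison under any alternative, including each library left out in turn. The number of genes with an FDR below 0.05 among all genes was near 0 in the stress comparisons. In PFC it was 0, and 1 with no filter on low counts, 5 with DESeq2, 2 with library sizes without mtDNA genes, 5 with all 62 libraries in one fit and 0 to 2 with single libraries left out. In NAc it was 1, and 2 with no filter, 2 with all 62 libraries in one fit, 0 with DESeq2, library size as a covariate, the numbering run as a covariate, a robust spread, the share of detected genes as a covariate or without NAc CTR 7 and NAc mCRS 10, and 0 to 1 with single libraries left out. For the interaction it was 1, and 0 with a stricter filter of at least 10 counts in 50% of the libraries and 1 to 7 with single libraries left out, the highest without PFC mCRS 2.

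Libraries with the same number did not deviate together (r between -0.03 and 0.05, 0 pairs above 0.1), so the numbers were not taken as a pairing, and 1 or 2 libraries of each group correlated best with their own number. In the stress comparisons and the interaction, the replicate block tied CTR and mCRS libraries of the same number, which came from different mice. Between regions it tied PFC and NAc libraries of the same number, which the labels do not assign to 1 mouse. With the replicate block, the number of genes with an FDR below 0.05 was 1 in PFC, 0 in NAc, 0 for the interaction, 596 between regions in CTR and 583 in mCRS. The block turned the sign of the log2 fold change in PFC for *Csf1r* (-0.19), *C1qb* (-0.42), *Trem2* (0.47) and *Tgfbr1* (-0.36), and in NAc for *C1qa* (-0.30) and *Csf1* (-0.41). Between regions it did so in CTR for *P2ry12* (0.066), *C1qa* (0.13), *C1qc* (0.10), *Tgfbr1* (1.47) and *Tyrobp* (0.25), and in mCRS for *C1qa* (-0.026), *Il34* (0.25) and *Csf1* (1.33).

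Other signs that turned were all of fold changes that had not passed the test, and the cause was not tested. With library size as a covariate they were *P2ry12* in PFC (0.087), *C1qa* in NAc (-0.015), *Csf1* between regions in CTR (-0.16) and *Tmem119* between regions in mCRS (-0.39). With the share of detected genes, a covariate chosen after seeing the data, they were *Csf1r* (-0.10), *P2ry12* (0.074), *C1qb* (-0.086) and *Il34* (0.090) in PFC, *C1qa* in NAc (-0.037), *Csf1* between regions in CTR (-0.27), and *Tmem119* (-0.79) and *Tgfbr1* (-0.30) between regions in mCRS. With the numbering run they were *Trem2* (0.023) and *Tgfbr1* (-0.024) in PFC, *C1qb* between regions in CTR (0.019), and *Cx3cr1* (-0.023) and *Csf1* (0.017) between regions in mCRS. *Cx3cl1* between regions in CTR turned to 0.029 with DESeq2 and with RLE size factors, and to 0.042 without NAc CTR 7 and NAc mCRS 10, libraries doubted after seeing the data, where *Csf1* turned to -0.11. As differences of mean log2 CPM, they were *Csf1r* (-0.45), *C1qb* (-0.37) and *Trem2* (0.036) in PFC, *C1qa* in NAc (-0.31), *P2ry12* (0.022), *C1qa* (0.26) and *C1qc* (0.049) between regions in CTR, and *C1qa* in mCRS (-0.031).

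With single libraries left out, ranges that crossed 0 in PFC were those of *Csf1r* (-0.28 to 0.20), *C1qb* (-0.16 to 0.16), *P2ry12* (-0.22 to 0.064), *Csf1* (-0.030 to 0.77) and *Tgfbr1* (-0.28 to 0.73). In NAc they were those of *C1qa* (-0.24 to 0.14), *Csf1* (-0.064 to 0.39) and *Il34* (-0.50 to 0.052), and for the interaction those of *C1qa* (-0.0024 to 0.41), *Il34* (-0.32 to 0.35) and *Csf1* (-0.52 to 0.28). Between regions in CTR they were those of *P2ry12* (-0.20 to 0.054), *C1qa* (-0.19 to 0.081), *C1qb* (-0.21 to 0.026), *C1qc* (-0.22 to 0.052), *Csf1* (-0.11 to 0.38), *Tgfbr1* (-0.81 to 0.085), *Tyrobp* (-0.23 to 0.10) and *Cx3cl1* (-0.063 to 0.042). In mCRS they were those of *Cx3cr1* (-0.097 to 0.52), *Tmem119* (-0.00080 to 0.45), *C1qa* (-0.12 to 0.28), *C1qb* (-0.075 to 0.31) and *Csf1* (-0.45 to 0.31). *Sirpa* in CTR and *Apoe* in both conditions kept an FDR below 0.05 under every alternative. *B2m* in mCRS did not with DESeq2 (-0.89) or with the share of detected genes (-0.83). *Rgs10* in CTR passed with DESeq2 (1.20).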

Other observations

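The genes whose levels followed the mean of the microglia genes most closely were not among the marker lists. The microglia genes themselves varied little together, so this mean is not a level they shared. Each gene's r with the mean of the other members lay between -0.033 (*Trem2*) and 0.23 (*Aif1*). Over 62 libraries with group means removed, genes outside the 9 with the highest Pearson's r with the mean log2 CPM of the 9 included *Mtfp1* (r = 0.56), *Srsf4* (0.56), *Smcr8* (0.53), *Hbs1l* (0.51), *Stmn4* (0.51), *Dnmt1* (0.50), *Tmem204* (0.49), *Slc39a13* (0.49) and *Hdac6* (0.49). Over the 8707 genes ranked, the median r was 0.12 and the 95th percentile 0.34. These genes were picked as the highest of many, the libraries share depth and composition, and the values are a description with no test.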
